A study of Mus musculus with 8 samples.

Results

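Mouse chromosome 18 was followed from end to end in chromatin profiles of tagged histone H3, using 8490 of the 245206 genomic bins analysed (3.46%) and 339 of the authors' 8375 H3.3K36M peaks. The bins were the 10 kb rows of chromosome 18 in the authors' deposited table whose mean over the 4 HA libraries was at least 0.5 RPM, that is, reads scaled to the library total. The table held 8634 rows for this chromosome in build mm9, of which 135 were wider than 10 kb and 9 of 10 kb fell under 0.5 RPM. The lowest bin inside the limit, chr18:71790001-71800000, had a mean of 0.541 RPM, and the highest one outside it, chr18:85210001-85220000, had 0.386 RPM. The bins were selected on this mean, and the chromosome was chosen by its ratio of H3.3K36M to H3.3WT, which was known to stand apart. All values below that involve that ratio are therefore descriptions, and none was tested.

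Histone H3.1 is placed on DNA mainly behind the replication fork by the chaperone CAF-1, so it tends to follow the whole genome. H3.3 is also placed outside replication, by HIRA at active genes and regulatory elements and by DAXX with ATRX at repeats and telomeres. Inactive, late-replicating domains therefore usually hold little H3.3. The K36M change replaces lysine 36 of the H3 tail by methionine and inhibits the enzymes that methylate this lysine.

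The cells were C3H10T1/2, mesenchymal progenitors derived from C3H mouse embryos, at passages 10 to 15. All 4 lines stably expressed a histone carrying a FLAG-HA tag, which was H3.3K36M, H3.3WT (wild type), H3.1K36M or H3.1WT. The labels name no change to the cells' own H3 genes, and whether a line is 1 clone is not given. Chromatin bound by an HA antibody was sequenced as 1 library per line, and the 4 input libraries were not analysed here. With 1 library per line there is no replicate check of any difference, and all intervals are exact 95% intervals that cover counting error only. The libraries held 38783917 reads (H3.3K36M), 46749609 (H3.3WT), 41705735 (H3.1K36M) and 35487141 (H3.1WT). The median chromosome 18 bin held 122, 118, 152 and 137 reads in these libraries, in the same order. Input values being unused here, the amount of chromosome 18 DNA in each line, the efficiency of the immunoprecipitation and the placement of the histone cannot be told apart.

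The share of HA signal on chromosome 18 was larger for H3.3K36M than for H3.3WT. A smaller difference of the opposite sign separated the H3.1 lines. Of all reads in used bins, 3.52% fell on chromosome 18 in H3.3K36M (3.516% to 3.528%), against 2.88% in H3.3WT (2.878% to 2.888%). In H3.1K36M the share was 3.24% (3.230% to 3.241%), against 3.44% in H3.1WT (3.433% to 3.445%). The chromosome made up 3.46% of the bins, so H3.3WT was the library that lay farthest from that share. The median bin level was 3.16 RPM in H3.3K36M against 2.54 in H3.3WT, and 3.66 RPM in H3.1K36M against 3.88 in H3.1WT. Over all bins of the genome these medians were 3.004, 2.77, 3.64 and 3.65 RPM, so H3.3WT was the only library with a lower median on chromosome 18 than over all bins.

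Ratios were taken per bin as log2 of RPM with 0.1 RPM added, which understates the change of low bins. The median log2(H3.3K36M/H3.3WT) was 0.36 on chromosome 18 and 0.10 over all bins, a difference of 0.26. Of the other 19 chromosomes analysed, chromosome 13 came nearest, with a difference of 0.19, followed by chromosome 6 with 0.14, and chromosome 15 lay at the other end with -0.30. For H3.1K36M over H3.1WT chromosome 18 had the lowest median of the 20 chromosomes, -0.076 relative to all bins, with chromosome X next at -0.065. These contrasts share no library. For H3.3K36M over H3.1K36M chromosome 18 lay at 0.084 relative to all bins, while for H3.3WT over H3.1WT it lay at -0.21, with only chromosome X lower at -0.23. The difference between the H3.3 lines thus went with a slightly raised H3.3K36M level on this chromosome and a low H3.3WT level, each against the H3.1 line of the same state.

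**Figure D1:**
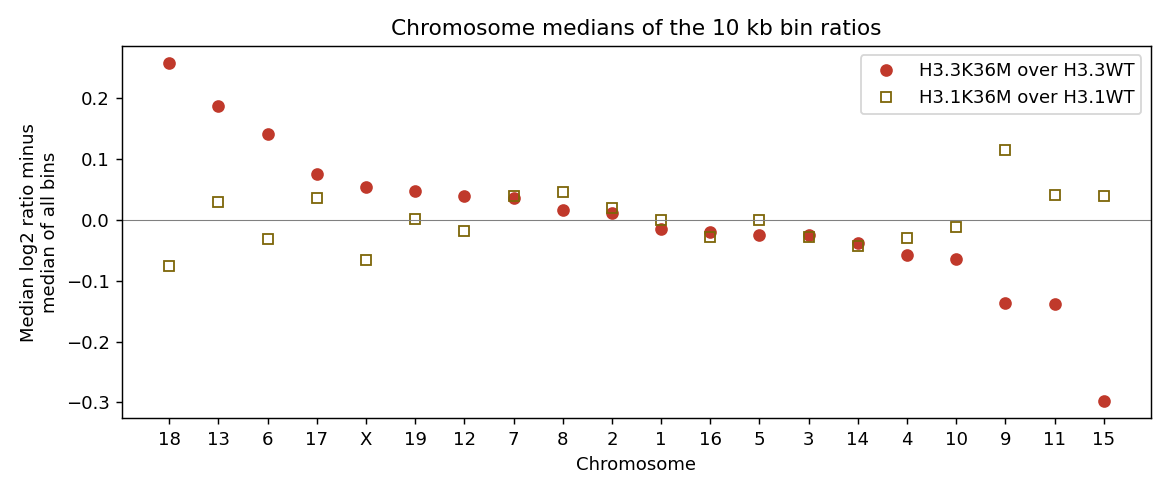
Median log2 ratio of the 10 kb bins of each chromosome minus the median of all bins, for H3.3K36M over H3.3WT (filled circles) and H3.1K36M over H3.1WT (open squares), 1 library per line. Chromosome 18 is the leftmost, at 0.26 for the H3.3 lines and -0.076 for the H3.1 lines.

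By a rule of 2-fold on the log2 scale, 754 of the 8490 bins (8.88%) were higher in H3.3K36M relative to H3.3WT, where 2.94% of all bins of the genome were. The count of 754 was 491 with the H3.3 libraries scaled to a common median ratio, 206 with only bins at or above the median signal and 163 with 1 RPM added in place of 0.1 RPM. In the other direction 17 bins (0.200%) were lower in H3.3K36M, where 1.81% of all bins were, and this count was 30, 17 and 4 under these settings. In all, 68.9% of the bins lay above the median of all bins (genome, 50.0%). These counts follow from the shift that led to the choice of the chromosome. Once each chromosome's own median was subtracted, 1.97% of chromosome 18 bins passed the rule as higher and 1.81% as lower, where 1.75% and 2.54% of bins on the other chromosomes did. The shift also had nearly the same size throughout the distribution of ratios. Between the 5th and the 95th percentile, the log2 ratio at a given percentile of chromosome 18 bins exceeded that at the same percentile of all other bins by 0.24 to 0.30. At the 1st percentile it exceeded it by 0.39 and at the 99th by 0.28.

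The signal itself was not moved up evenly. At the 10th percentile of bins H3.3K36M held 2.10 RPM on chromosome 18 and 1.74 RPM on the other chromosomes, a ratio of 1.21, while H3.3WT held 1.31 and 1.35 RPM, a ratio of 0.968. At the 90th percentile H3.3K36M held 7.20 RPM on chromosome 18 and 7.28 RPM elsewhere, a ratio of 0.989, while H3.3WT held 6.39 and 7.96 RPM, a ratio of 0.803. Against the other chromosomes, the low bins of chromosome 18 were thus high in H3.3K36M, and its high bins were low in H3.3WT. H3.1K36M and H3.1WT stood at ratios of 1.11 and 1.16 at the 10th percentile and 0.921 and 0.989 at the 90th. Raised low bins were thus common to all libraries except H3.3WT and not particular to H3.3K36M. The ratio of the 90th to the 10th percentile on chromosome 18 was 3.43 in H3.3K36M, 4.87 in H3.3WT, 1.74 in H3.1K36M and 1.85 in H3.1WT. Over all bins of the genome it was 4.13, 5.83, 2.09 and 2.18 in the same order. The narrower span in H3.3K36M than in H3.3WT was thus not particular to chromosome 18.

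In 1 Mb windows the H3.3 signal formed long troughs broken by peaks of signal. The chromosome gave 88 windows with 74 to 100 used bins each. The window medians ran from 2.40 to 7.83 RPM in H3.3K36M, a 3.27-fold span, and from 1.34 to 6.74 RPM in H3.3WT, a 5.02-fold span. They ran only from 3.11 to 5.77 RPM in H3.1K36M and from 3.21 to 5.90 RPM in H3.1WT. Levels in the H3.3 lines followed each other along the chromosome, with Pearson's r of 0.829 (Spearman's rho 0.855) between log2 window medians over the 88 windows. Neighbouring windows are not independent, and the value describes these libraries only.

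**Figure D2:**
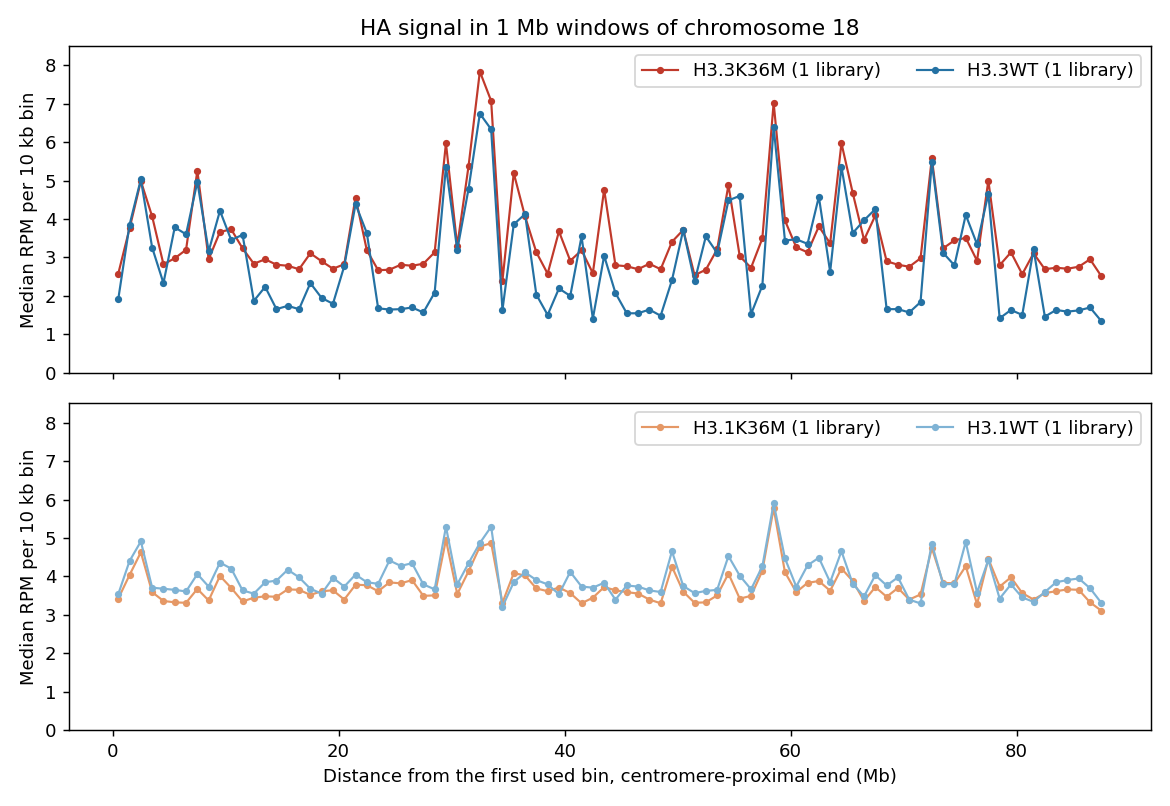
Median RPM per 10 kb bin in the 88 windows of 1 Mb along chromosome 18, with H3.3K36M and H3.3WT in the upper panel and H3.1K36M and H3.1WT in the lower one, 1 library per line. In the troughs H3.3K36M stays near 2.76 RPM and H3.3WT near 1.64 RPM, while at the highest windows the H3.3 lines lie close together.

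The difference between the H3.3 lines was uneven, with segments of high and low ratio along the whole length. The median log2(H3.3K36M/H3.3WT) lay above that of all bins in 66 of the 88 windows (75%), where 50.5% of all windows of the genome did. The window values ran from -0.43 to 0.88 with an SD of 0.33 over windows, against SDs of 0.16 (chromosome X) to 0.35 (chromosome 4) on the other chromosomes. The windows at 0.5 or more numbered 34 of 88 (genome, 222 of 2537, 8.75%). Those below 0 numbered 14 of 88 (genome, 990 of 2537, 39.0%), and 40 lay between. The limits of 0.5 and 0 were set after the values were seen. In the 34 windows at 0.5 or more the bin median was 2.80 RPM in H3.3K36M against 1.63 in H3.3WT, and 3.59 RPM in H3.1K36M against 3.76 in H3.1WT. In the 14 windows below 0 it was 3.25 RPM in H3.3K36M against 3.89 in H3.3WT, and 3.59 RPM in H3.1K36M against 3.91 in H3.1WT.

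**Figure D3:**
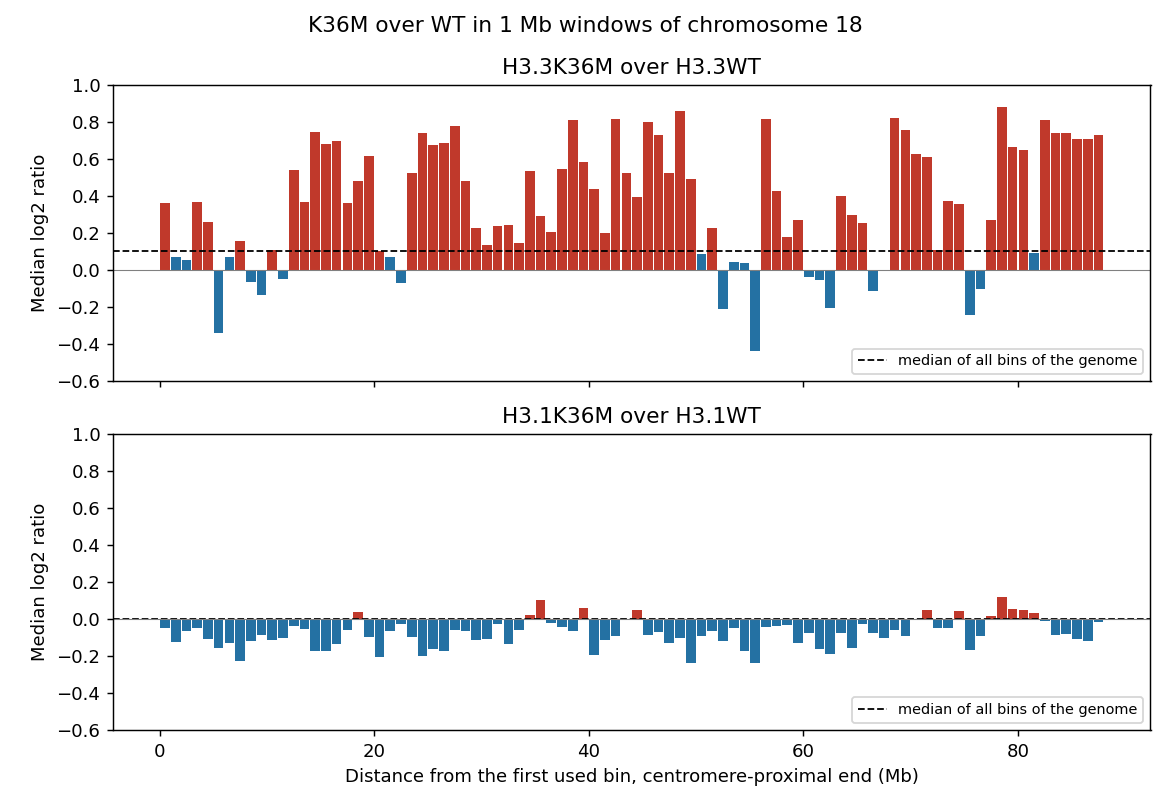
Median log2 ratio of K36M over WT in each 1 Mb window of chromosome 18 for the H3.3 lines (upper panel) and the H3.1 lines (lower panel), with red bars above and blue bars below the median of all bins of the genome (dashed). The H3.3 values are graded, with 34 windows at 0.5 or more, 40 between 0 and 0.5 and 14 below 0, and the H3.1 values stay between -0.24 and 0.12.

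No end of the chromosome held the shift alone. The proximal 29 windows (2812 bins) had a bin median log2 ratio of 0.33, the middle 29 windows (2812 bins) 0.38 and the distal 30 windows (2866 bins) 0.38. Windows at 0.5 or more numbered 10, 11 and 13 in these stretches, and windows below 0 numbered 5, 2 and 7. The first window, chr18:3000001-4000000, had 2.58 RPM in H3.3K36M against 1.91 in H3.3WT. The last, chr18:90000001-91000000, had 2.51 RPM in H3.3K36M against 1.34 in H3.3WT over 74 bins.

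The 34 windows at 0.5 or more joined into 12 segments, 7 of them of 3 Mb or longer. The longest, chr18:85000001-91000000, took in the distal end of the chromosome, and its 551 bins averaged 2.99 RPM in H3.3K36M against 1.77 in H3.3WT, a ratio of 1.69 (1.67 to 1.71). H3.1K36M averaged 3.399 RPM there and H3.1WT 3.60 RPM, a ratio of 0.944 (0.934 to 0.953). At chr18:26000001-31000000 the average was 2.797 RPM in H3.3K36M against 1.73 in H3.3WT, a ratio of 1.62 (1.596 to 1.64). At chr18:71000001-75000000 it was 3.15 RPM in H3.3K36M against 1.995 in H3.3WT, a ratio of 1.58 (1.56 to 1.60). The segment chr18:48000001-52000000 averaged 3.02 RPM in H3.3K36M against 1.89 in H3.3WT, a ratio of 1.595 (1.57 to 1.62). The other 3 segments of 3 Mb were chr18:17000001-20000000, chr18:40000001-43000000 and chr18:81000001-84000000, with ratios of 1.74, 1.48 and 1.43. Among these 7 segments, chr18:81000001-84000000 was the only one where H3.1K36M also exceeded H3.1WT, with 3.79 RPM against 3.60 RPM, a ratio of 1.05 (1.04 to 1.07).

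The highest window was chr18:81000001-82000000, with a median log2 ratio of 0.88 and 35 of its 98 bins past the 2-fold rule as higher. Its medians were 2.80 RPM in H3.3K36M against 1.42 in H3.3WT, and 3.74 RPM in H3.1K36M against 3.42 in H3.1WT. The next were chr18:51000001-52000000 at 0.86, chr18:71000001-72000000 at 0.82, chr18:59000001-60000000 at 0.82 and chr18:45000001-46000000 at 0.82. These 4 windows had medians of 2.59 to 2.90 RPM in H3.3K36M and 1.41 to 1.66 RPM in H3.3WT. Their H3.1 levels lay a little under the chromosome's medians, at 3.302 to 3.49 RPM in H3.1K36M and 3.59 to 3.76 RPM in H3.1WT.

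The lowest window was chr18:58000001-59000000, with a median log2 ratio of -0.43, 3.03 RPM in H3.3K36M against 4.601 in H3.3WT. H3.1K36M was also lower than H3.1WT there, with 3.42 RPM against 4.02 RPM. It was followed by chr18:8000001-9000000 at -0.34, with 2.98 RPM in H3.3K36M against 3.78 in H3.3WT. The remaining named low windows were chr18:78000001-79000000 at -0.24, chr18:55000001-56000000 at -0.21 and chr18:65000001-66000000 at -0.20. The 5 windows lay between 2.68 and 3.81 RPM in H3.3K36M and between 3.55 and 4.601 RPM in H3.3WT. In all 5 the H3.1 ratio was negative too, from -0.24 to -0.12, and 74 of the 88 windows had an H3.1 ratio under that of all bins.

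The steepest change between neighbouring windows lay at 59 Mb, where the median log2 ratio was 0.82 in the distal and -0.43 in the proximal window. In blocks of 100 kb the transition was gradual. At chr18:58600001-58700000 the median was 3.21 RPM in H3.3K36M against 5.10 in H3.3WT. At chr18:58800001-58900000 it was 2.63 RPM in H3.3K36M against 3.09 in H3.3WT. At chr18:58900001-59000000 it was 2.84 RPM in H3.3K36M against 1.88 in H3.3WT, and at chr18:59400001-59500000 3.34 RPM in H3.3K36M against 1.39 in H3.3WT. In these 4 blocks the H3.3WT levels thus differed far more than those of H3.3K36M, which lay between 2.63 and 3.34 RPM. Farther from the boundary, H3.3K36M reached 6.62 RPM at chr18:58000001-58100000, against 6.12 in H3.3WT. The median log2 ratio of that block was 0.43, although it belongs to the lowest window. Further steps lay at 71 Mb (a rise of 0.82 in the log2 ratio) and at 85 Mb (a rise of 0.72).

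The size of the difference went with the H3.3 level of the window. In the 34 windows with an H3.3WT median under 2 RPM, H3.3K36M lay between 2.40 and 3.13 RPM (median 2.76 RPM) and H3.3WT between 1.34 and 1.9995 RPM (median 1.64 RPM). Ratios in these windows were all above that of all bins, from 0.36 to 0.88 on the log2 scale. In the 34 windows with H3.3WT between 3 and 5 RPM, H3.3K36M lay between 2.68 and 5.37 RPM (median 3.59 RPM) and H3.3WT had a median of 3.63 RPM. All 14 windows with a ratio below 0 belonged to these 34, whose median log2 ratio was 0.07. In the 7 windows with H3.3WT at 5 RPM or more, H3.3K36M lay between 4.99 and 7.83 RPM and H3.3WT between 5.03 and 6.74 RPM, with log2 ratios from 0.05 to 0.30. Over the 88 windows, Pearson's r of the log2 ratio was -0.831 with the H3.3WT level and -0.408 with the H3.3K36M level. H3.3WT is a part of the ratio, so the split by H3.3WT level and the first of these values are in part built in. With the H3.1WT level, which is not part of the ratio, r was -0.265 (rho -0.216), and with the H3.1 ratio it was 0.271 (rho 0.236).

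**Figure D4:**
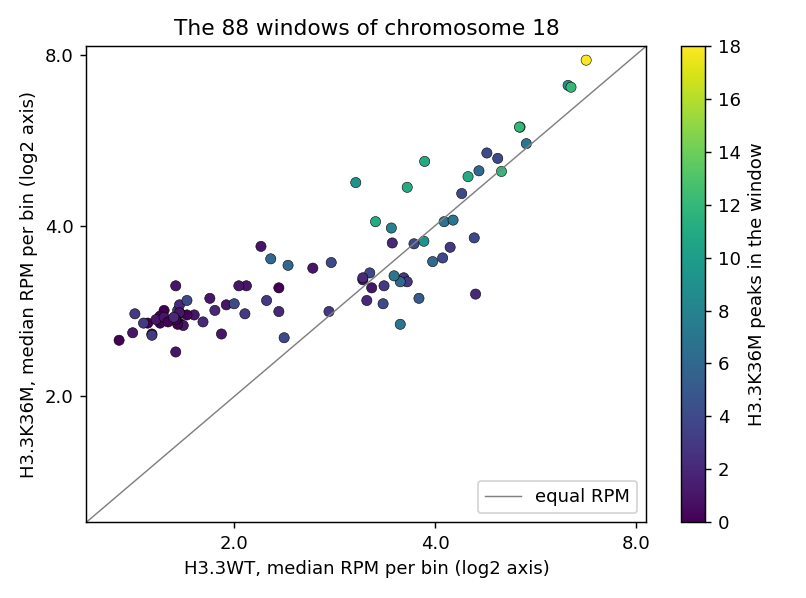
H3.3K36M against H3.3WT as median RPM per bin in the 88 windows of chromosome 18, on log2 axes, with the number of H3.3K36M peaks in the window as colour and equal RPM as the line. Windows under 2 RPM in H3.3WT lie flat between 2.40 and 3.13 RPM in H3.3K36M, all above the line, and the windows rich in both lie close to it.

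Lower ratios in H3.3-rich than in H3.3-poor classes of bins were present on the other chromosomes too. Chromosome 18 lay above their bins in every class. Within each chromosome, bins were ranked on H3.3WT over H3.1WT and cut into 5 classes of equal size, using some of the WT reads, drawn at random, for the ranking and the remainder for the ratio. Separate reads remove only the counting error that ranking and ratio would share. The H3.3WT library still entered both, so the dependence on these classes is in part built in. From the poorest to the richest class, the median log2(H3.3K36M/H3.3WT) on chromosome 18 was 0.73, 0.63, 0.31, 0.00 and 0.11. In all bins of the other chromosomes it was 0.41, 0.32, 0.08, -0.22 and -0.18. Chromosome 18 thus exceeded them by 0.33, 0.32, 0.23, 0.22 and 0.29. It was higher than any of the other 19 chromosomes in the classes 1, 2 and 5, and below 1 of them in class 3 (chromosome 6, 0.33) and in class 4 (chromosome X, 0.11). Chromosome 13 came nearest in class 1 at 0.705 and in class 5 at 0.09. With 10 classes, chromosome 13 was above chromosome 18 in the richest class, at 0.19 against 0.17.

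Ranking bins by the K36M lines instead (H3.3K36M over H3.1K36M) gave a weaker dependence and a similar excess. Separate reads again served ranking and ratio, but the H3.3K36M library entered both. The median log2(H3.3K36M/H3.3WT) on chromosome 18 was then 0.44, 0.42, 0.37, 0.24 and 0.30 from the poorest to the richest class, and the excess over the other chromosomes was 0.25 to 0.30. In each of these 5 classes chromosome 18 was higher than all of the other 19 chromosomes, though in the richest class chromosome 13 was close at 0.291. With 10 classes, chromosome 13 was the higher in the richest class, at 0.38 against 0.35 on chromosome 18. Over the classes set by the WT lines, the median ratio of H3.1K36M over H3.1WT lay between -0.08 and -0.05 on chromosome 18, against -0.01 to 0.02 elsewhere. When the classes by WT lines were set over all chromosomes together, the excess ran from 0.03 to 0.35. With the classes by K36M lines set in that way it ran from 0.27 to 0.30. These last alternatives were chosen after seeing the data.

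**Figure D5:**
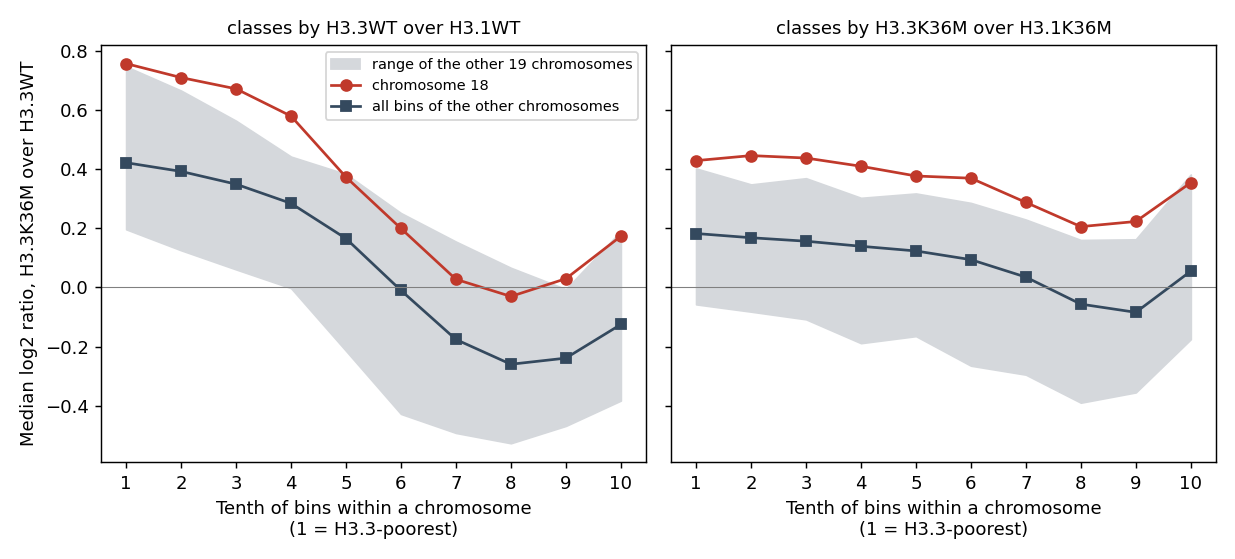
Median log2(H3.3K36M/H3.3WT) in 10 equal classes of bins within each chromosome, ranked by H3.3 over H3.1 in the WT lines (left) and in the K36M lines (right), for chromosome 18 (circles), all bins of the other chromosomes (squares) and the range of the other 19 chromosomes (grey). The line of chromosome 18 runs above that of the other bins by 0.20 to 0.33 on the left and 0.25 to 0.31 on the right.

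At the scale of single bins the higher bins formed many short stretches. The 754 higher bins formed 517 regions of touching bins, of which 370 were single bins, and 10.6% of the bins lay in stretches of 50 kb or more. On the other chromosomes that share was 7.87%. The 17 lower bins formed 16 regions, none over 20 kb. The longest stretches, of 70 kb each, were chr18:18910001-18980000, chr18:30650001-30720000 and chr18:81670001-81740000. At chr18:18910001-18980000, H3.3K36M averaged 5.04 RPM per bin and H3.3WT 1.86 RPM, a ratio of 2.71 (2.46 to 2.99). At chr18:30650001-30720000, H3.3K36M averaged 4.90 RPM and H3.3WT 1.77 RPM, a ratio of 2.77 (2.51 to 3.06). The last lay near trough level in H3.3K36M, at 2.86 RPM, and under the trough windows in H3.3WT, at 1.12 RPM. Its ratio was 2.55 (2.25 to 2.89), with 3.68 RPM in H3.1K36M against 3.33 in H3.1WT.

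The stretches described next lay above the usual trough level of 2.76 RPM in H3.3K36M and, apart from those named last, at the trough level in H3.3WT. At chr18:37010001-37070000 H3.3K36M averaged 5.12 RPM, H3.3WT 1.61 RPM, H3.1K36M 4.28 RPM and H3.1WT 4.45 RPM, an H3.3 ratio of 3.18 (2.85 to 3.55). At chr18:40530001-40590000 H3.3K36M averaged 5.02 RPM and H3.3WT 1.71 RPM, a ratio of 2.94 (2.64 to 3.28). The remaining 5 of the 10 longest stretches were chr18:76950001-77010000, chr18:81910001-81970000, chr18:22040001-22090000, chr18:45720001-45770000 and chr18:48770001-48820000, with ratios of 2.87, 2.51, 2.56, 2.61 and 3.04. Among these 5, H3.3WT was lowest at chr18:81910001-81970000, with 1.16 RPM against 2.92 in H3.3K36M, which is near trough level. At chr18:76950001-77010000 H3.3WT held 1.33 RPM against 3.82 in H3.3K36M. In H3.3WT both of these stretches lay under the trough windows, the lowest of which had 1.34 RPM.

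Among regions whose mean over the H3.3 lines was at or above the chromosome's median of 2.87 RPM, the highest ratio was at chr18:90410001-90420000. It held 6.40 RPM in H3.3K36M against 1.075 in H3.3WT, a ratio of 5.95 (4.38 to 8.24). The bin chr18:90010001-90020000 held 7.10 RPM in H3.3K36M against 1.55 in H3.3WT, a ratio of 4.58 (3.52 to 6.03). Both lie in the last window of the chromosome. The other named high regions, chr18:42920001-42940000, chr18:67120001-67130000 and chr18:40790001-40810000, had ratios of 4.21, 4.19 and 4.19. Because the ranking and the ratios used the same reads, these extreme ratios tend to be too large.

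In the other direction, chr18:69130001-69140000 held 2.02 RPM in H3.3K36M against 7.12 in H3.3WT, 3.52-fold lower (2.75 to 4.57). At chr18:44120001-44130000 it was 2.95 RPM in H3.3K36M against 9.52 in H3.3WT, 3.23-fold lower (2.62 to 3.999). Next came chr18:58650001-58670000, 2.45-fold lower, chr18:58300001-58310000, 2.38-fold lower, and chr18:8860001-8870000, 2.27-fold lower, which lie in the 2 lowest windows. Over these 5 regions H3.1K36M held between 2.39 and 4.55 RPM and H3.1WT between 2.60 and 3.88 RPM. H3.1K36M was the higher at chr18:69130001-69140000 and chr18:8860001-8870000, and it was 3.18 RPM against 3.17 in H3.1WT at chr18:58300001-58310000.

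Peaks of H3.3K36M were spread over the chromosome but sparse in the troughs. The authors' list gives positions only, and it held 339 peaks covering 1.21 Mb of chromosome 18, or 3.99 per Mb of used bins, against 3.42 per Mb over all chromosomes. The median peak was 1.8 kb long (2 kb in the whole list), and 27 (7.96%) were 10 kb or longer (6.79% of the whole list). The 34 windows under 2 RPM in H3.3WT held 41 of the 339 peaks, and 11 of these windows held none. The 7 windows at 5 RPM or more held 83 peaks, up to 18 in chr18:35000001-36000000. That window had 7.83 RPM in H3.3K36M against 6.74 in H3.3WT. The longest distance without a peak, 3.897 Mb at chr18:85050401-88947800, lay within the distal segment of raised ratio.

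Peak bins had high H3.3 signal with and without K36M. The 426 bins that shared at least 1 base with a peak had medians of 9.31 RPM in H3.3K36M against 7.08 in H3.3WT, and 3.54 RPM in H3.1K36M against 3.91 in H3.1WT. The other bins had medians of 3.08, 2.39, 3.66 and 3.88 RPM in these libraries. The median log2(H3.3K36M/H3.3WT) was 0.40 in peak bins and 0.36 in the others. Peaks were called in the H3.3K36M line, which by itself can raise the ratio in peak bins. Of the 754 higher bins, 4.24% held a peak, where 5.02% of all chromosome 18 bins did.

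The longest peaks were places of high H3.3 in both lines. The longest, chr18:60764601-60812800 (48.2 kb), averaged 14.8 RPM per bin in H3.3K36M against 11.5 in H3.3WT, and 6.66 RPM in H3.1K36M against 7.11 in H3.1WT. At chr18:52653001-52697400 (44.4 kb) it was 18.3 RPM in H3.3K36M against 14.7 in H3.3WT, a ratio of 1.25 (1.19 to 1.31). At chr18:75530601-75565400 (34.8 kb) it was 15.6 RPM in H3.3K36M against 11.9 in H3.3WT, a ratio of 1.32 (1.24 to 1.395). The highest ratio among the 10 longest was at chr18:39874001-39902000 (28 kb), with 14.5 RPM in H3.3K36M against 6.68 in H3.3WT, a ratio of 2.18 (2.03 to 2.34). The other 6 were chr18:60903801-60931200, chr18:35092001-35112200, chr18:52717401-52737600, chr18:52783601-52802200, chr18:16893201-16911600 and chr18:35342601-35359400, with ratios of 1.42, 1.38, 1.47, 1.17, 1.48 and 1.86.

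Set against H3.1, the highest H3.3 bins of chromosome 18 were the same in the K36M and the WT lines. The 3 bins with the highest ratio of H3.3K36M over H3.1K36M were chr18:50220001-50230000, chr18:14050001-14060000 and chr18:52680001-52690000, and the same 3 were highest for H3.3WT over H3.1WT. At chr18:52680001-52690000 H3.3K36M held 19.3 RPM against 1.205 RPM in H3.1K36M, a ratio of 16.0 (12.0 to 21.8), and H3.3WT held 13.3 RPM against 1.896 RPM in H3.1WT, a ratio of 7.01 (5.44 to 9.16). At chr18:50220001-50230000 the ratio was 11.2 in the K36M lines and 8.72 in the WT lines, and at chr18:14050001-14060000 it was 9.39 and 7.93.

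The lists of bins lowest in H3.3 relative to H3.1 held different bins in the K36M and the WT lines. Only bins at or above the median of the mean of the compared libraries were listed. This limit was set for each pair of libraries and also held for the highest bins. In the K36M lines the lowest bins were chr18:83770001-83780000, chr18:27860001-27870000 and chr18:12730001-12740000, with 2.12, 2.12 and 2.20 RPM in H3.3K36M and 5.11, 5.06 and 5.16 RPM in H3.1K36M. In the WT lines they were chr18:88870001-88880000, chr18:59380001-59390000 and chr18:27630001-27640000, with 1.398, 1.55 and 1.48 RPM in H3.3WT and 5.41, 5.91 and 5.26 RPM in H3.1WT. All 3 lie in the troughs described above, and H3.3K36M held 3.86, 3.004 and 2.72 RPM there.

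On RPM as deposited, H3.3K36M passed the 2-fold rule above H3.1K36M in 759 chromosome 18 bins, 8.94% against 8.18% over the genome. It passed the rule below H3.1K36M in 99, 1.17% against 3.29% over the genome. After scaling by the median of all bin ratios, which was -0.30, the counts were 1218 (14.3%; genome, 12.7%) and 10 (0.118%; genome, 0.394%), so the higher ones were 88.5% of the counted bins before this step and 99.2% afterwards. H3.3WT passed the rule above H3.1WT in 455 bins, 5.36% against 10.3% over the genome, and below it in 2922, 34.4% against 16.8%. After scaling by a median of -0.43 the counts were 1135, 13.4% against 19.9%, and 755, 8.89% against 1.72%. The higher ones were 13.5% of the counted bins before this scaling and 60.1% afterwards. The bins counted as lower in H3.3 were thus fewer in the K36M lines than in the WT lines on either scale. The same held over the genome.

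Between the H3.1 lines, bins past the 2-fold rule were rare on all chromosomes. There was 1 bin higher in H3.1K36M, 0.0118% of the bins (genome, 0.0122%), and 0 were lower (genome, 0.0640%). Log2 ratios of single bins had an SD of 0.21 for the H3.1 lines and of 0.49 for the H3.3 lines. Counting error alone gave 0.19 for the median H3.3 bin and was not computed for the H3.1 lines. Among bins at or above the median level, the lowest ratio was at chr18:10310001-10320000, with 3.62 RPM in H3.1K36M against 7.25 in H3.1WT, 2.004-fold lower (1.63 to 2.47) before the 0.1 RPM was added. The bin before it, chr18:10300001-10310000, had 3.93 RPM in H3.1K36M against 7.41 in H3.1WT, and chr18:65640001-65650000 had 4.75 RPM in H3.1K36M against 8.80 in H3.1WT. The highest were chr18:35830001-35840000, with 5.88 RPM in H3.1K36M against 3.51 in H3.1WT, chr18:32560001-32570000 at a ratio of 1.55, and chr18:31730001-31740000 at 1.53.

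One bin stood far above the rest in all 4 libraries. It was the first used bin, chr18:3000001-3010000, with 67.1 RPM in H3.3K36M against 52.6 in H3.3WT, and 58.97 RPM in H3.1K36M against 50.6 in H3.1WT. The bin chr18:40460001-40470000 was also high in all of them, with 12.95, 9.55, 13.04 and 12.1 RPM in the same order. These bins were picked after their values were seen, as those with a high mean over the 4 libraries. Other bins with a high mean were high in H3.3 only, such as chr18:60910001-60920000, with 24.9 RPM in H3.3K36M against 14.0 in H3.3WT, and 4.43 RPM in H3.1K36M against 4.53 in H3.1WT.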

How the data were processed

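Each library was grouped by its genotype field, because the ChIP titles of the H3.3 lines start with H3.1. The sample descriptions name an HA antibody, while the labels' protocol text names another one. Build mm9 and Bowtie 1.0.0 are named in the submitters' processing notes. For the counting of bins and the calling of peaks, methods are not given in the sources used here. What the authors deposited was RPM per bin and lists of peak positions, with no value per peak. In each RPM column 100% of values under 50 RPM were whole multiples of 1 read within 0.05 of a read, so reads were recovered for the intervals (Clopper-Pearson). Reads carried no stated molecular identifiers, so intervals cover counting error only.

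Rows wider than 10 kb were left out. A bin was counted at 2-fold on log2(RPM + 0.1), a rule of size. Windows of 1 Mb needed 50 used bins. Named regions followed a rule: the 10 longest higher regions, the 5 highest and 5 lowest regions, windows as named, the 10 longest peaks and 3 bins per side of the other ratios. The members, lists and rules were chosen with earlier results of these data known. No genome of build mm9 was used, so no gene or sequence is given. Classes of H3.3 level used seeded random portions of the reads, and a bin held a peak if they shared 1 base. With 1 library per line no count test was run on the recovered reads. Alternatives changed the pseudocount, filter, scaling, fold rule, window size, summing and classes. Ratio, window and class steps were tested on simulated data. The tools were matplotlib 3.10.9, scipy 1.17.1, pandas 2.3.3 and numpy 2.4.6 under Python 3.11.15.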

Additional observations from a re-analysis of the deposited data

Results flagged for a closer look

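The ratios of K36M to WT on chromosome 18 had opposite signs in the H3.3 and H3.1 lines: relative to all bins, the median log2 ratio of K36M over WT was 0.26 in the H3.3 lines and -0.076 in the H3.1 lines, a gap of 0.33. This difference was not tested, since each line has 1 library.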

How the results depend on the processing

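No median or class difference changed sign under any alternative run. With a pseudocount of 1 RPM, 163 bins were higher and 4 lower in H3.3K36M, the medians relative to all bins were 0.19 (H3.3 lines), -0.0603 (H3.1 lines), 0.0631 (K36M lines) and -0.16 (WT lines), and the richest minus the poorest class was -0.41. With bins at or above the median signal, 206 bins were higher, the medians were -0.0821 in the H3.1 lines and 0.10 in the K36M lines, the class difference was -0.36, and 36 of the 45 windows left lay above the median of all bins. Scaling by the median of bin ratios gave 491 bins higher and 30 lower, subtracting the chromosome's median 167 and 154, and a 1.5-fold rule 2778 and 205. Windows of 0.5 Mb gave 131 of 176 above the median of all bins and windows of 2 Mb 34 of 43. By summed RPM, 77 of 88 windows of 1 Mb lay above the ratio of summed RPM over all bins. That reference, a log2 ratio of -0.00071, was lower than the median of all bins, so this count is not directly comparable. Ratios of summed RPM gave 0.29 (H3.3 lines), -0.088 (H3.1 lines), 0.12 (K36M lines) and -0.25 (WT lines). The class difference of -0.62 was -0.58 with 10 classes, -0.54 with classes set over all chromosomes, -0.15 with classes by the K36M lines, and -0.14 with those set over all chromosomes. Classes by H3.1WT signal divide the bins by another measure, and their highest minus lowest class was -0.14. The median log2 ratio was 0.34 in the lowest and 0.20 in the highest of these classes, and up to 0.46 in a class between. The causes of these moves were not tested. Without a filter on low bins, with the wider rows or with a pseudocount of 0.01 RPM, the values stayed close. No paired analysis was possible because each line has 1 library. Depth limits single bins, which held a median of 122 reads in H3.3K36M and 118 in H3.3WT, more than windows.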
